A study of Mus musculus with 2 samples.

Results

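The genes described here are the histone genes whose symbols begin with Hist, a cluster number and the letter h, which took in 61 of the 16416 genes in the table of single cells. By protein, 5 encode the linker histone H1, 15 encode H2A, 16 encode H2B, 12 encode H3 and 13 encode H4. The cells came from mouse tumors, dissociated and sorted into live CD45+ and CD45- cells, which were recombined at 5:1, and were profiled with the Chromium Single Cell 3′ v2 chemistry. There were 2 libraries: the WT library, from tumors engrafted in wild-type mice, and the S303/7A library, from tumors engrafted in mice whose HSF1 carries alanine in place of serine at both sites for which the allele is named. HSF1 is the master transcription factor of the heat shock response. Tumors of 4 mice were pooled, so each genotype is 1 sample, no value below has a replicate check, and no test between the genotypes was possible. The labels give the genotype of the host mice; that of the engrafted tumor cells is not given in the sources used here.

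Histones package DNA. Pairs of H2A, H2B, H3 and H4 form the nucleosome core, and H1 binds the DNA that enters and leaves it. Most genes of the Hist clusters are replication-dependent: they are transcribed during S phase, and their mRNAs end in a conserved stem-loop, bound by the stem-loop binding protein SLBP, in place of a poly(A) tail. Some also give polyadenylated mRNAs, above all in cells that have left the cell cycle or are differentiating. A library primed on poly(A), as here, captures the polyadenylated messages and those primed at internal runs of A, so the values below describe captured 3′ ends and not the total histone mRNA. A level is the mean over cells of the gene's UMIs (unique molecular identifiers, each standing for 1 captured molecule) per 10000 UMIs of the cell.

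In the mouse annotation (GENCODE M21, GRCm38), 49 of the 61 genes lie on chromosome 13, 9 on chromosome 3, 2 on chromosome 11 and 1 on chromosome 6. The histone stem-loop motif, on the transcript's strand, was in the longest coding transcript of 43 genes. Of these, 22 ran more than 100 bases past the loop, and 11 of the 22 had a poly(A) signal (AATAAA or ATTAAA) in their last 50 bases. The other 21 stopped within 100 bases, and 1 of them had such a signal. Several genes without a match have short annotated transcripts, for example 381 bases in Hist1h2bl and 312 in Hist1h4k. Their 3′ ends may not be annotated in full, so a missing match does not show that the loop is absent. The stem-loops of 6 genes that carried many of the histone UMIs are shown 5′ to 3′ as DNA, with the 16 letters of the stem-loop in capitals, the 12 bases before it and the 2 after it, since the bases around the loop differ between the gene with the most UMIs and the others.
Hist1h2ap: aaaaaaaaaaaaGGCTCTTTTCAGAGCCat
Hist1h2ae: aaaaaaaacaaaGGCTCTTTTCAGAGCCat
Hist1h1e: caacaacccaaaGGCTCTTTTCAGAGCCac
Hist1h4i: atgctacttaaaGGCCCTTTTTAGGGCCac
Hist1h1c: aacaatccaaaaGGCTCTTTTCAGAGCCac
Hist3h2a: acagacaccaaaGGCTCTTTTCAGAGCCac

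Hist1h2ap, which encodes H2A (chr13:21833026-21833507, minus strand), has all 12 bases before the loop as A, and its 482-base annotated transcript ends 3 bases after the loop. Across the 43 genes the median was 6 A among those 12 bases. Hist1h2ao had the same 12, and Hist1h2ae, with 11, came next. After the loop, the annotated transcript went on for 151 bases in Hist1h2ae, 330 in Hist1h4i, 840 in Hist1h1c, 1153 in Hist1h1e and 1643 in Hist3h2a. Hist1h2bc, an H2B gene (chr13:23684199-23692908, plus strand), held no match to the motif in its longest coding transcript, of 1156 bases. No other transcript was searched, so here too a missing match does not show that the loop is absent.

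Many histone genes are near copies. Of all words of 31 bases in Hist1h2ap, 93.4% were also in another Hist gene (the same 93.4% in Hist1h2ao), and the median over the 61 genes was 55.2%. By these shared words, many reads of Hist1h2ap could match a copy as well. The table nevertheless gave 31970 UMIs to Hist1h2ap and 16 to Hist1h2ao. How reads were divided between them is not given in the sources used here, so the values of Hist1h2ap are uncertain as those of a single gene. The shares were lower for Hist1h2bc (31.3%), Hist1h1c (11.4%), Hist3h2a (3.3%) and Hist1h1b (3.1%). The last 400 bases of Hist1h1e lie wholly within the annotation of Hist1h2be on the same strand, so those reads may be split between these genes or lost.

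Promoters were taken from RefSeq (GRCm38.p6) for the 55 histone genes that could be matched by position. In the 250 bases before the start site, CCAAT (either strand), the box bound by NF-Y, was present in 44 of 55, against 33.8% of 32851 promoters of that length. TATAAA was in 26 of the 55 and in 12.4% of all promoters. The octamer ATTTGCAT, to which POU factors such as Oct-1 bind, was in 10 of 55, all 10 among the 29 H2A and H2B promoters, and in 1.6% of all. Those of 3 genes whose levels are followed below are shown with these motifs in capitals: Hist1h2ap (chr13:21833476-21833725, minus strand), Hist1h1b (chr13:21780626-21780875, minus strand) and Hist1h1c (chr13:23738557-23738806, plus strand).
Hist1h2ap: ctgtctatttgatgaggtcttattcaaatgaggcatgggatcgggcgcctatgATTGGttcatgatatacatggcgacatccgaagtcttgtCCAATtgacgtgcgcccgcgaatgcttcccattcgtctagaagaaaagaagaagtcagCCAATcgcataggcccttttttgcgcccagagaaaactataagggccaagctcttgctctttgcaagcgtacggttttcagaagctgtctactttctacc
Hist1h1b: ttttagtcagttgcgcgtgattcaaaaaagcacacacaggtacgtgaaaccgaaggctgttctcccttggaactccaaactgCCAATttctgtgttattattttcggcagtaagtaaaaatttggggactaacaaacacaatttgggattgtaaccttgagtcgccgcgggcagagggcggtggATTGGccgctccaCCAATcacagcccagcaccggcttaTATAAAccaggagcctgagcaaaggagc
Hist1h1c: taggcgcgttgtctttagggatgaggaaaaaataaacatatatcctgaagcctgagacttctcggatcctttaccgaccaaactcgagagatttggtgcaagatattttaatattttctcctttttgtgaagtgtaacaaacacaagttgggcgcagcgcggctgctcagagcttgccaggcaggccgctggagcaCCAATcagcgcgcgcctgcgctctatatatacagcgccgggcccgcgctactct

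Among the 3, only Hist1h1b held TATAAA, and all 3 held CCAAT. A match describes the letters and not a bound site.

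The WT library held 6654 cells and the S303/7A library 4802, in 22 clusters that the authors assigned to classes (Tumor, MF, CD8T and others). Median depth was 7698 UMIs per cell in WT and 13028 in S303/7A, and 48 cell barcodes, 1.0% of those of S303/7A, occurred in both libraries. Libraries were compared in the 17 clusters with at least 50 cells in each; the S303/7A cells were deeper in 16 of the 17, by 1.10 to 2.45 times, and the ratio was 0.99 in C14. In these clusters, median mitochondrial percentages lay between 1.49 and 4.93 in WT, and between 1.38 and 5.26 in S303/7A. Most classes carried their markers: the summed level of 6 macrophage genes (Adgre1, C1qa and others) was 64.8 to 225 in the MF clusters and at most 53.6 elsewhere. The 4 vessel markers of the class called Stromal (Pecam1, Cdh5, Acta2, Rgs5) reached 0.561 to 1.19 in its cluster C15, below the 1.92 of another cluster, so C15 is named by its label only. C22, labelled Gr with C18, lacked neutrophil markers (0 and 0.616) and carried mast cell markers (595 and 425). Clusters were made from all genes of these cells, histone genes included, so contrasts between clusters are descriptions.

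The 61 genes gave 50516 of 87075636 UMIs in WT (0.0580%) and 44553 of 72802161 in S303/7A (0.0612%). A few genes made up most of them. Hist1h2ap gave 33.6% of the histone UMIs, Hist1h2bc 26.8%, the linker histone gene Hist1h1c 13.8%, the H2A gene Hist3h2a 5.63%, the linker histone gene Hist1h1e 4.03%, the H4 gene Hist1h4i 3.60%, the linker histone gene Hist1h1b 2.43% and the H2A gene Hist1h2ae 1.11%. Only 17 of the 61 reached 0.1 UMIs per 10000 in either library of any compared cluster, and 44 did not. At the low end, Hist1h4k had 4 UMIs in both libraries together, Hist1h4m 10 and Hist1h2ao 16. With clusters weighted equally, H2A genes gave 46.7% of the summed level in WT and 43.1% in S303/7A, H2B genes 25.6% in both, H1 genes 20.1% and 22.8%, H4 genes 5.78% and 6.04%, and H3 genes 1.85% and 2.41%. Without Hist1h2ap the H2A share was 18.2% and 16.1%. The core histones, which pair in equal numbers in the nucleosome, were thus captured in very unequal numbers.

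**Figure D1:**
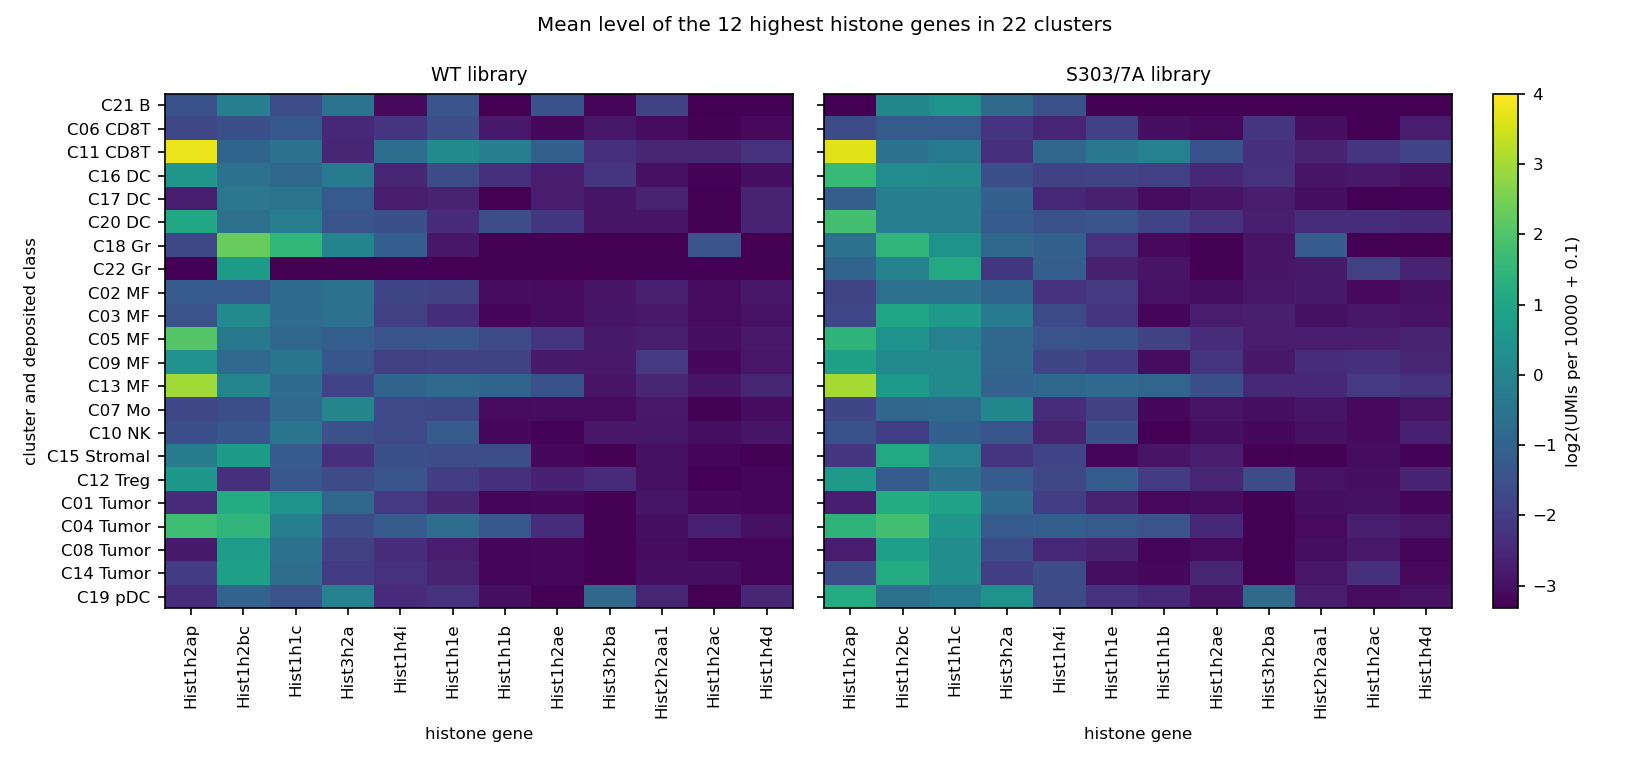
Mean level of the 12 highest histone genes (columns) in the 22 clusters (rows, with the deposited class), as log2(UMIs per 10000 + 0.1), for the WT library (left) and the S303/7A library (right). Hist1h2ap is brightest in C11 and C13 in both panels, while Hist1h2bc and Hist1h1c are bright in the Tumor clusters and in C18 of WT.

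The summed level differed more between clusters than between libraries. It was highest in C11, a CD8T cluster, at 19.2 in WT and 18.4 in S303/7A, followed by C13, an MF cluster, at 11.7 and 14.4, and the Tumor cluster C04 at 8.72 and 9.26. The other CD8T cluster, C06, was lowest among the 17 in both libraries, at 1.56 and 1.73. The sum of the cycling markers Mki67, Top2a, Ube2c and Pcna was 14 and 11.2 in C11 and 1.37 and 0.995 in C06. Over the 34 combinations of cluster and library, genes whose level followed the histone sum closely included Cit (Pearson r = 0.92 on the log2 scale), which acts in cytokinesis, the spindle checkpoint kinase gene Bub1b (0.90) and the cyclin gene Ccna2 (0.87). These points share 2 libraries and their depth.

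**Figure D2:**
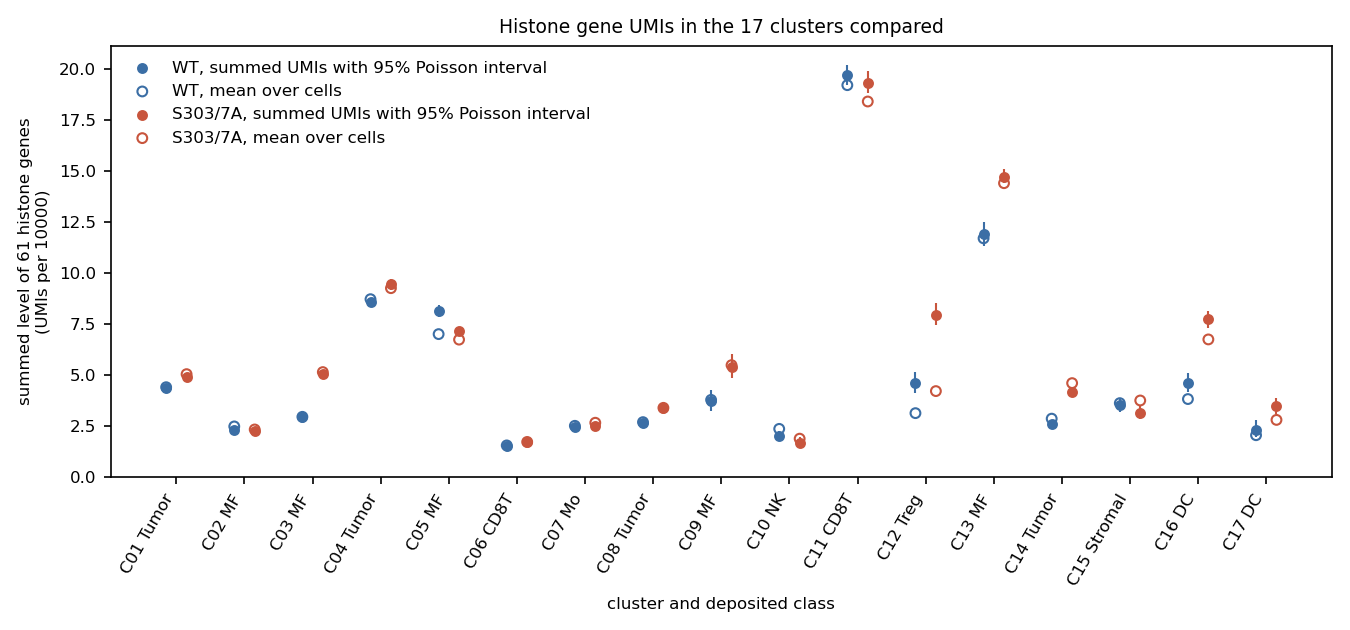
Summed level of the 61 histone genes (UMIs per 10000) in each of the 17 clusters compared, by library. Filled points are summed UMIs with 95% Poisson intervals, which cover counting error only, and open points are means over cells. C11, C13 and C04 stand above the rest in both libraries.

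Within a class, the cycling cluster was compared with the others, the latter weighted equally. The histone sum in C11 was 12.4 times that of C06 in WT and 10.7 times in S303/7A. For C13 against the MF clusters C02, C03, C05 and C09 the ratios were 2.88 and 2.92, and for C04 against the Tumor clusters C01, C08 and C14 they were 2.62 and 2.13. C05 itself contains cycling cells, with a UMI of Mki67 or Top2a in 47.2% of its WT and 56.5% of its S303/7A cells.

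The size of that difference separated the genes. Hist1h2ap stood at 13.8 in C11 and 0.197 in C06 in WT, and at 12.3 and 0.227 in S303/7A. In the MF class it was 7.72 in C13 and 1.46 in the other clusters in WT, and 8.17 and 1.19 in S303/7A. In the tumor cells it was 3.23 in C04 against 0.0909 in WT, and 2.61 against 0.110 in S303/7A. Hist1h1b, the linker histone H1.5, followed it: 0.798 in C11 against 0.0403 in C06 in WT, and 0.825 against 0.0236 in S303/7A. In C04 it was 0.293 and 0.270 against 0.00809 and 0.0113 in the other Tumor clusters. Hist1h1e, the linker histone H1.4, was 1.03 and 0.665 in C11 against 0.233 and 0.163 in C06. Hist1h4i was 0.528 and 0.431 in C11 against 0.117 and 0.0692, and Hist1h2ae was 0.382 and 0.258 against 0.0107 and 0.0127.

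For Hist1h2bc, Hist1h1c and Hist3h2a the contrast was smaller, absent or reversed. In tumor cells Hist1h2bc was 2.67 in C04 and 1.81 in the other clusters in WT, a ratio of 1.48, and 3.40 and 2.0 in S303/7A, a ratio of 1.70. Hist1h1c, the linker histone H1.2, was 0.783 against 0.771 in WT and 1.34 against 1.35 in S303/7A in tumor cells, and 0.570 in C11 against 0.304 in C06 in WT and 0.709 against 0.324 in S303/7A, ratios of 1.87 and 2.19. In the MF class it was 0.495 against 0.511 in WT and 1.03 against 0.953 in S303/7A. Hist3h2a was lower in the cycling MF cluster, at 0.176 against 0.440 in WT and 0.392 against 0.499 in S303/7A.

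**Figure D3:**
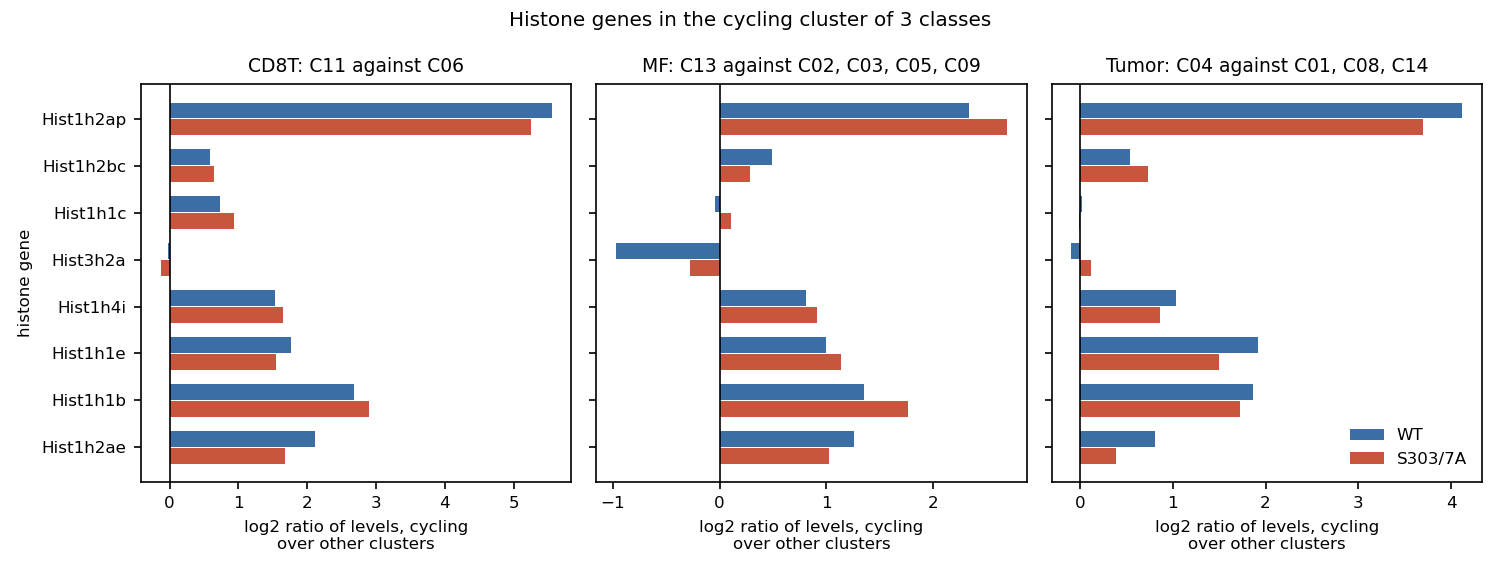
Log2 ratio of the level in the cycling cluster over the mean of the other clusters of the class, for the 8 highest histone genes, in CD8T, MF and Tumor cells and in both libraries (a pseudocount of 0.1 was added). Hist1h2ap has the longest bars in all 3 classes, and Hist3h2a bars lie near 0 or below it.

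The same split appeared among cells of 1 cluster. Cells of the 3 cycling clusters were ordered by the summed level of 28 DNA replication genes (Mcm2 to Mcm7, Pcna, Tyms and others) and divided into 4 equal bins. In the Tumor cluster C04 in WT, Hist1h2ap was 0.814, 1.74, 3.88 and 6.48 from the lowest to the highest bin. Hist1h2bc ran the other way, 4.31, 2.86, 2.27 and 1.24, and so did Hist1h1c, 1.38, 0.782, 0.544 and 0.425. In S303/7A, Hist1h2ap in C04 was 0.239, 1.66, 2.56 and 6.03, Hist1h2bc was 6.10, 3.33, 2.56 and 1.51, and Hist1h1c was 2.74, 1.04, 0.830 and 0.724. The opposite gradients were thus present in both libraries.

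In C13 in WT, Hist1h2ap was 2.65 in the lowest bin and 12 in the highest, while Hist1h2bc was 2.10 and 0.167 and Hist1h1c 0.884 and 0.217. In S303/7A these were 2.31 and 14.6, 3.38 and 0.480, and 1.72 and 0.707. In C11, Hist1h2ap was 6.67 and 21.5 in WT and 5.64 and 21.4 in S303/7A, against 0.874 and 0.0850 and then 1.31 and 0.128 for Hist1h2bc. Hist1h1b and Hist1h1e went with Hist1h2ap: in C04 in WT, Hist1h1b was 0.0596 and 0.690 and Hist1h1e 0.213 and 0.798 in the lowest and highest bins. In these 3 clusters and both libraries, Hist1h1b and Hist1h1e were thus higher in the highest bin than in the lowest, and Hist1h1c was lower, though the extreme value was in the third bin for some. Median depth per bin in C04 in WT lay between 31213 and 36757 UMIs, so the bins differed little in depth. The replication sum and the histone levels are shares of the same UMIs. The lowest bin was not the one lowest in mitosis genes in C11 and C13. The sum of 22 mitosis genes (Mki67, Top2a and others) was 70.0 in the lowest and 37.1 in the highest bin of C11 in WT. It was 39.6 and 15.3 in C13 in WT. In S303/7A it was 48.5 and 34.0 in C11, and 46.3 and 22.6 in C13. In C04 it was 24.9 and 22.7 in WT, and 15.3 and 24.6 in S303/7A. The gradients of Hist1h2bc and Hist1h1c were not general. Over the cells of a cluster, the correlation of Hist1h2bc with the replication sum was -0.28 in WT and -0.40 in S303/7A in C04, but -0.04 and -0.11 in the MF cluster C05, 0.08 and 0.14 in the Treg cluster C12 and 0.05 and 0.00 in the DC cluster C16. For Hist1h1c it was -0.20 and -0.24 in C04, 0.02 and -0.05 in C05, 0.13 and 0.21 in C12 and -0.04 and -0.13 in C16. In C12 Hist1h1c was highest in the highest bin in both libraries, at 0.438 and 0.726. The correlation of Hist1h1c with the mitosis sum was 0.23 in WT and 0.14 in S303/7A in C04. It was 0.26 and 0.24 in C11, and 0.22 and 0.38 in C13. For Hist1h2bc it was -0.07 and -0.17 in C04. In C11 that of Hist1h2bc was 0.12 and 0.28, and in C13 0.31 and 0.26.

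**Figure D4:**
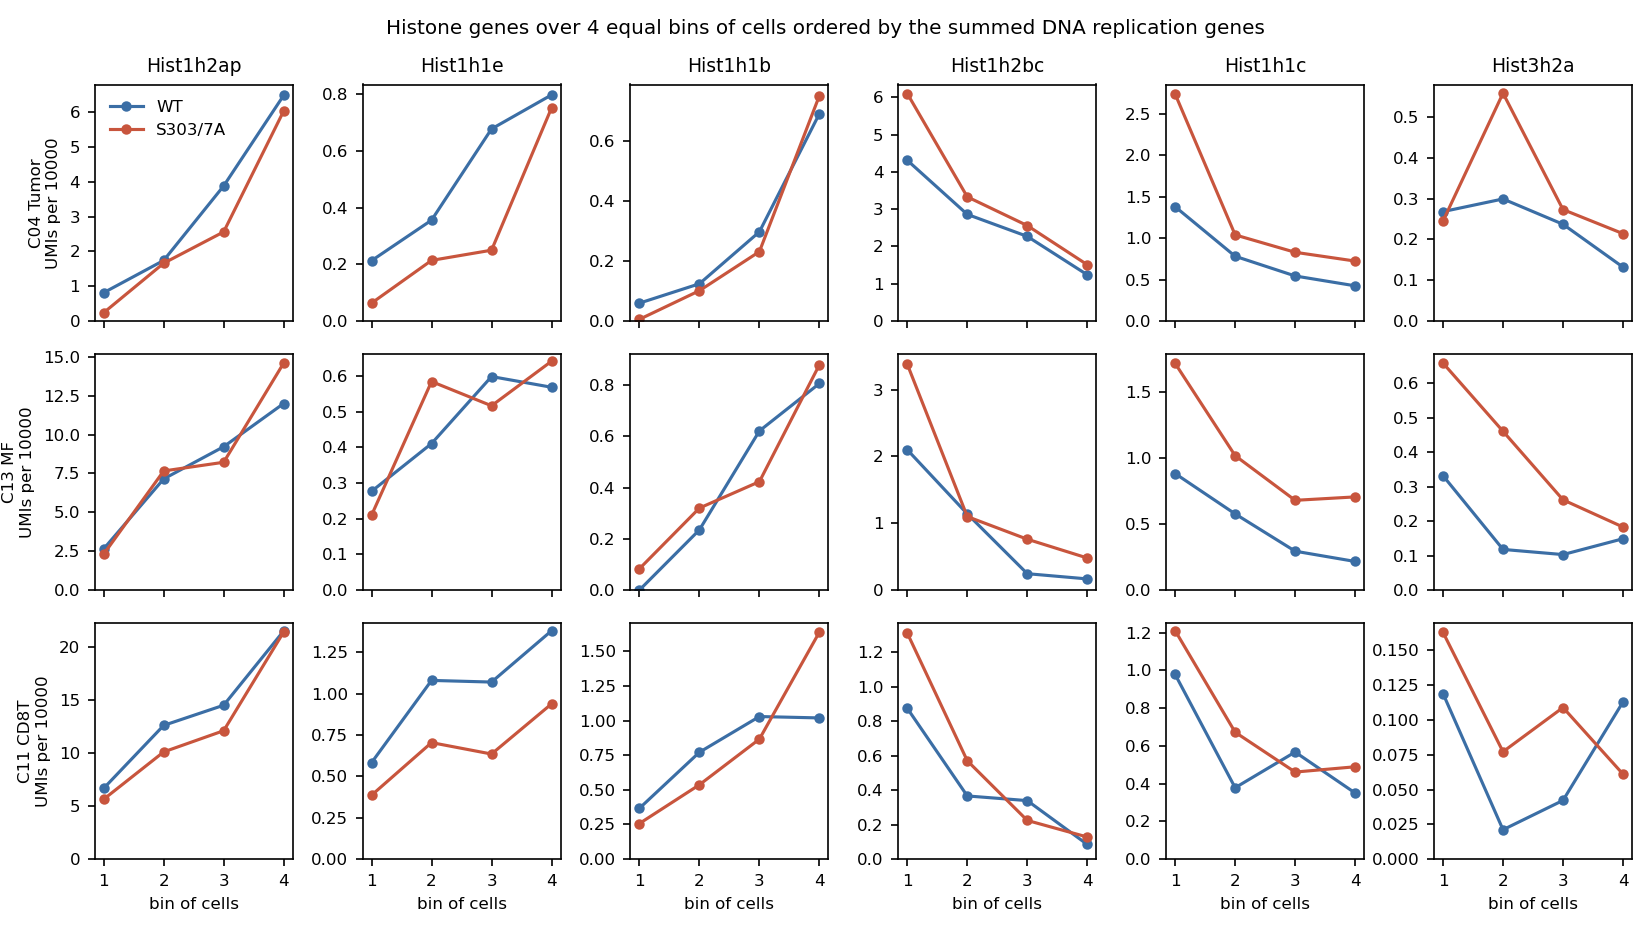
Level (UMIs per 10000) of 6 histone genes in 4 equal bins of the cells of C04, C13 and C11, from the lowest (1) to the highest (4) summed level of DNA replication genes. Blue is WT and red is S303/7A. Hist1h2ap, Hist1h1e and Hist1h1b are higher in bin 4 than in bin 1 in every panel, Hist1h2bc and Hist1h1c are lower.

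Over the 34 combinations of cluster and library, the log2 levels of Hist1h2ap and Hist1h1b had a Pearson r of 0.93, those of Hist1h2ap and Hist1h2ae 0.88, and those of Hist1h2bc and Hist1h1c 0.74. Hist1h2ap and Hist1h2bc had an r of -0.04. The genes most like Hist1h2ap were Asf1b (0.97), a chaperone that hands H3 and H4 to new DNA, Nusap1 (0.97) and Aurkb (0.96), both of mitosis. Those most like Hist1h2bc were Nenf (0.90), Gkap1 (0.89) and Ltc4s (0.89). Likeness to single histone genes was looked up after their values were seen.

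Other genes had patterns of their own. Hist3h2a was highest among the 17 clusters in the Mo cluster C07, at 0.898 in WT and 0.965 in S303/7A, and 0.0739 and 0.103 in C11. The H2B gene Hist3h2ba was 0.432 (7 UMIs) and 0.475 (16 UMIs) in the small pDC cluster C19, its highest levels. In WT, Hist1h2bc and Hist1h1c reached their highest means in C18, which carried neutrophil markers (summed level 435 in WT and 490 in S303/7A): Hist1h2bc was 4.81 in WT and 2.74 in S303/7A, and Hist1h1c 2.77 and 1.26. In S303/7A the highest means were 3.40 in C04 for Hist1h2bc and 2.03 in C22 for Hist1h1c, the latter from 18 UMIs. C18 held 39 and 41 shallow cells (median 1125 and 1280 UMIs) and was not compared between libraries. From summed UMIs, Hist1h2bc there was 2.14 in WT (95% Poisson interval 1.33 to 3.28), while S303/7A had 1.72 (1.18 to 2.43).

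The comparison of the libraries asks how histone genes stood in tumors of S303/7A hosts. The histone sum had a higher mean in S303/7A in 13 of the 17 clusters, with a median log2 ratio of 0.19. When summed UMIs were taken over the cluster's total UMIs, the 95% interval of the ratio (exact, conditional on the total) lay above 1 in 10 clusters, below 1 in 1 and around 1 in 6. These intervals cover counting error only and not the spread between mice. By the ratio of means, the largest differences were in C03, C16 and C14. The MF cluster C03 had 2.96 in WT and 5.15 in S303/7A (UMI ratio 1.72, interval 1.59 to 1.87). The DC cluster C16 had 3.83 and 6.75 (1.68, 1.5 to 1.88), and the Tumor cluster C14 had 2.87 and 4.61 (1.60, 1.5 to 1.70). In the Treg cluster C12 the means were 3.14 and 4.22, but the UMI ratio, 1.73 (1.52 to 1.97), was as high as in C03. The tenth of the C12 cells with the most histone UMIs held 76.7% of these UMIs in WT and 82.0% in S303/7A. In the cycling clusters the UMI ratios were nearer to 1 than in these: 0.980 (0.943 to 1.02) in C11, 1.10 (1.07 to 1.14) in C04 and 1.24 (1.18 to 1.31) in C13. This was not particular to cycling clusters. The means were also close in C02 (2.49 in WT and 2.34 in S303/7A), C07 (2.52 and 2.67) and C15 (3.63 and 3.76). The UMI ratio whose interval lay below 1 was that of C05, 0.882 (0.844 to 0.921). Without Hist1h2ap the sum in C05 was higher in S303/7A, with means of 2.98 in WT and 4.12 in S303/7A. The NK cluster C10 had the lowest log2 ratio of means, -0.31, with 2.37 in WT and 1.89 in S303/7A.

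Hist1h2bc had a higher mean in S303/7A in 16 of 17 clusters, with a median log2 ratio of 0.46, and its UMI interval lay above 1 in 13. Single cells decided some of these calls. Without the cell with the most Hist1h2bc UMIs, the interval held 1 in C08 (0.987 to 1.14) and lay above 1 in C06 (1.04 to 2.19). Among the 4040 genes of the table at or above 0.1 UMIs per 10000 in all 17 clusters, 2.35% were higher in at least 16 clusters and 1.78% had an interval above 1 in at least 13. Clusters of 1 library share the same pool of mice, so they do not repeat the comparison. In MF cells Hist1h2bc was 0.330 in WT and 0.534 in S303/7A in C02, 1.03 and 1.88 in C03, 0.674 and 1.22 in C05, 0.467 and 1.02 in C09, and 0.917 and 1.43 in C13. Markers of monocytes and macrophages moved with it: the sum of Ly6c2, Plac8, Chil3 and Ccr2 was 98.8 and 30.1 in C02, 7.34 and 2.08 in C03, 37.4 and 11.5 in C05, 34.9 and 9.18 in C09 and 7.05 and 3.70 in C13. The sum of the 6 macrophage markers was higher in S303/7A in each of the 5, for example 178 and 225 in C03 and 74.9 and 119 in C05, and the part of either in the result was not tested. In the Mo cluster C07 it was 0.239 and 0.438, in the DC cluster C16 0.583 and 1.08, and in Treg cells 0.104 (8 UMIs) and 0.335 (38 UMIs). The tumor cells differed less: 2.19 and 2.22 in C01 (UMI ratio 0.989, 0.937 to 1.04), 1.56 and 1.64 in C08, 1.68 and 2.15 in C14 and 2.67 and 3.40 in C04 (1.34, 1.27 to 1.41). NK cells were the exception, with 0.290 in WT (36 UMIs) and 0.156 in S303/7A (18 UMIs); the ratio by UMIs was 0.569 (0.304 to 1.03). With cells thinned to 1000 UMIs this direction turned, to a log2 ratio of 0.08.

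Hist1h1c was higher in S303/7A in 15 of 17 clusters, with a median log2 ratio of 0.71, and its interval lay above 1 in 11. Without the cell with the most Hist1h1c UMIs, the interval held 1 in C02 (0.995 to 1.47) and lay below 1 in C10 (0.372 to 0.875). In the whole table, 4.55% of the 4040 genes were higher in at least 15 clusters and 2.92% had an interval above 1 in at least 11. In C03 it stood at 0.493 in WT and 1.43 in S303/7A. The UMI ratio there, 3.10 (2.55 to 3.81), was the largest of this gene in the 17 clusters. Unlike Hist1h2bc, it also differed in every Tumor cluster: 1.22 and 1.78 in C01 (1.46, 1.37 to 1.57), 0.783 and 1.34 in C04 (1.78, 1.63 to 1.94), 0.576 and 1.12 in C08 (1.94, 1.74 to 2.15) and 0.515 and 1.14 in C14 (2.34, 2.04 to 2.69). The CD8T clusters differed less, with 0.304 and 0.324 in C06 (1.08, 0.761 to 1.54) and 0.570 and 0.709 in C11 (1.17, 0.94 to 1.47), while the Treg cluster C12 had 0.296 and 0.563 (2.11, 1.27 to 3.68). In the Mo cluster C07 it was 0.471 and 0.464, and NK cells again had the lower value in S303/7A, 0.623 and 0.384 (0.682, 0.454 to 1.01).

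In cells without a UMI of Mki67 or Top2a, a selection added after the data were seen, Hist1h2bc was higher in S303/7A in 15 of 17 clusters and Hist1h1c in 13; in C03 they were 0.926 and 1.89, and 0.510 and 1.5. In C13 the differences were smaller in these cells, with 1.31 and 1.42 for Hist1h2bc (log2 0.11, from 0.59) and 0.776 and 0.848 for Hist1h1c (0.11, from 0.93). In C17 the log2 ratios were -0.04 (from 0.22) and 0.07 (from 0.33), and Hist1h1c turned to -0.06 in C11 (from 0.27) and -0.18 in C06 (from 0.07). Elsewhere they grew: in C04 to 0.91 for Hist1h2bc (from 0.34) and 1.0 for Hist1h1c (from 0.71). In C11 that of Hist1h2bc grew to 1.01 (from 0.35). Few cells of C04, C11 and C13 were left, since 82.7% to 90.5% of their cells had such a UMI. Such a UMI is found more readily in a deeper cell, and S303/7A cells were deeper in 16 of 17 clusters. The selection is therefore not like for like between the libraries. In C05, for example, 47.2% of WT and 56.5% of S303/7A cells had such a UMI, while the mitosis sum was 11.1 and 9.28. In C16 both were higher in S303/7A. The summed level of the tumor markers Col1a1, Col3a1, Fosl1 and Hmga2 in the 12 immune clusters was between 0.374 and 0.892 in WT, but between 0.149 and 0.477 in S303/7A, lower in S303/7A in 12 of 12, against 11.1 to 22 in the Tumor clusters, and its part in the result was not tested. The greater depth of S303/7A cells moved with the result. With cells thinned to 1000 UMIs, Hist1h2bc was higher in 16 of 17 clusters and Hist1h1c in 15. Thinning left out the 199 WT and 63 S303/7A cells under that depth.

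Hist1h2ap did not share this direction. Of the 15 clusters where it reached 0.1 UMIs per 10000, its interval lay above 1 in 4, below 1 in 6 and around 1 in 5, and its median log2 ratio was 0.00. It was lower in S303/7A in C05, with 4.03 in WT and 2.63 (UMI ratio 0.603, 0.568 to 0.641), in C02, with 0.327 and 0.181 (0.605, 0.465 to 0.786), and in C15, with 0.757 and 0.122 (0.332, 0.200 to 0.532). In the cycling clusters C04 and C11 the UMI ratios were 0.860 (0.814 to 0.908) and 0.922 (0.881 to 0.965). It was higher in the DC cluster C16, with 1.30 and 3.04 (2.09, 1.76 to 2.49). In C16 median depth was 7559 UMIs in WT and 13261 in S303/7A, and the mitosis sum was 6.41 and 9.22. Its cells with a UMI of Mki67 or Top2a made up 22.4% in WT and 33.3% in S303/7A, a share that also depends on depth. Among cells of C16 without either UMI, Hist1h2ap was 0.139 and 0.114. In C15 that share was 29.4% in WT and 15.2% in S303/7A, while the mitosis sum was 11.4 and 14.5 and the replication sum 10.4 and 8.82. Tumor markers there were 7.38 and 3.41 and mast cell markers 1.49 and 0.0195, and their part in the result was not tested. Single cells weighed heavily: of the 61 Hist1h2ap UMIs of the DC cluster C17 in S303/7A, 36 were in 1 cell, and the UMI ratio was 9.05 (3.36 to 34.3) with it and 3.82 (1.32 to 15.1) without it. In C15, 27 of 75 WT UMIs were in 1 cell, and the ratio without it was 0.510 (0.299 to 0.850). Without the highest cell of C03 in WT, the interval in that cluster held 1 (0.559 to 1.04; with it 0.510 to 0.929). In C12 the UMI ratio was 1.87 (1.56 to 2.24), while the means were 1.41 in WT and 1.42 in S303/7A. There 1 S303/7A cell held 85 of 483 UMIs, and the ratio without it was 1.57 (1.31 to 1.90).

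The other linker and core genes were mixed. Hist1h1e had the lower mean in S303/7A in 10 of 13 clusters; it was 0.511 in WT and 0.318 in S303/7A in C04 (0.686, 0.584 to 0.803) and 1.03 and 0.665 in C11 (0.710, 0.590 to 0.852). Its interval lay below 1 in 3 of the 13, above 1 in 1 and around 1 in 9. In Treg cells it was 0.150 (14 UMIs) and 0.339 (47 UMIs), a log2 ratio of 0.81 that turned to -0.24 with cells thinned to 1000 UMIs. Hist1h1b had UMI ratios of 0.949 in C04 (0.792 to 1.13), 0.948 in C11 (0.788 to 1.14) and 1.07 in C13 (0.806 to 1.44), and the counts could not show a difference in these 3 cycling clusters. In C05, which also contains cycling cells, its ratio was 0.628 (0.492 to 0.806), from 104 UMIs in WT and 188 in S303/7A. Of the 8 clusters where it was measured, the interval lay below 1 in 3, above 1 in 1 and around 1 in 4. Hist3h2a was higher in 15 of 17 clusters by its mean, but its interval lay above 1 in 2 and below 1 in 2. In the DC cluster C16 it was 0.726 in WT and 0.242 in S303/7A (0.391, 0.255 to 0.597), and in C13 0.176 and 0.392 (2.06, 1.36 to 3.24). Hist1h4i had an interval below 1 in 4 clusters, among them C07, with 0.206 and 0.0891 (0.418, 0.246 to 0.693), and above 1 in C14. The H3 genes were sparse: Hist1h3c in C11 was 0.111 (40 UMIs) and 0.221 (58 UMIs), a ratio of 1.81 (1.19 to 2.78), and Hist1h3d in C13 0.0782 and 0.182, a ratio of 2.08 (1.16 to 4.06).

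**Figure D5:**
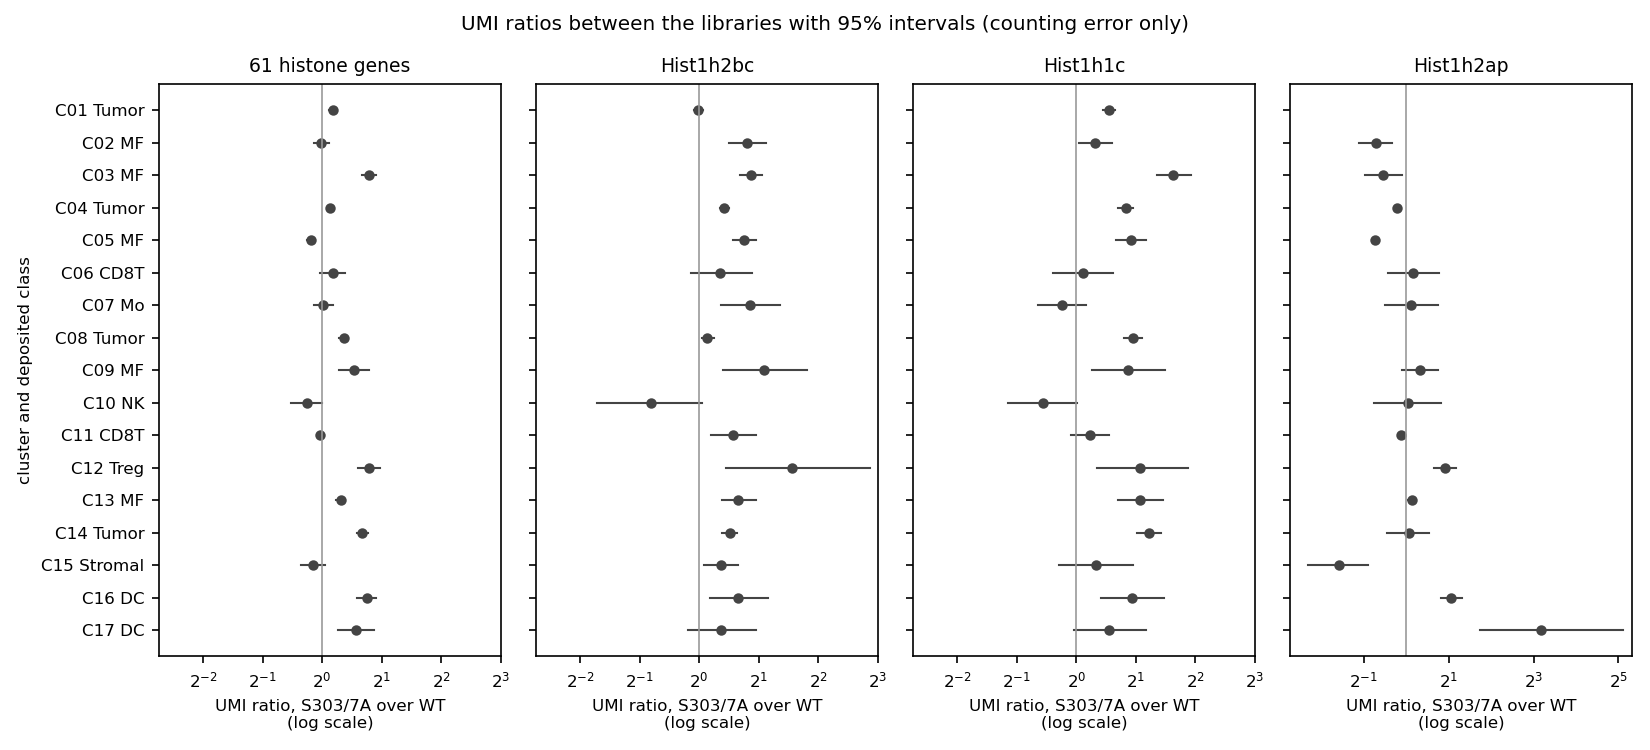
UMI ratio, S303/7A over WT, of summed UMIs over the cluster's total, on a log2 axis, with 95% intervals for counting error, in each compared cluster (rows) for the histone sum, Hist1h2bc, Hist1h1c and Hist1h2ap (panels, the last with a wider axis and without 2 clusters under 0.1 UMIs per 10000). Points of Hist1h2bc and Hist1h1c lie to the right of 1 in most clusters and to the left in C10, and those of Hist1h2ap lie on both sides.

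Counted gene by gene at 1.5-fold (log2 ratio with 0.1 added, at least 0.1 in either library), the 17 clusters gave 121 combinations of histone gene and cluster. Of these 30, or 24.8%, were over 1.5-fold higher in S303/7A, against 4.67% of all 122961 combinations, and 10, or 8.26%, were as much lower, against 5.86%. The same few genes recur across clusters in these counts. They depend on the pseudocount and the minimum: with 1 added, 2 (1.65%) were higher and 1 (0.826%) lower, against 0.235% and 0.393% of all combinations. With at least 0.5 in either library, 16 of 44 (36.4%) were higher and 3 (6.82%) lower, against 3.58% and 5.59%. In the MF clusters, 5 of 11 histone genes were over 1.5-fold higher and 0 lower in C13 (2.65% and 1.80% of all genes tested there). The other MF counts were 2 of 6 higher and 0 lower in C03 (2.46% and 2.14%), 2 of 8 and 1 of 8 in C05 (2.38% and 2.05%), 3 of 9 and 1 of 9 in C09 (12.2% and 11.1%) and 0 of 6 and 1 of 6 in C02 (3.01% and 5.03%). In tumor cells the higher and lower counts were 3 of 6 and 0 in C14 (2.46% and 1.61%), 1 of 7 and 0 in C04 (0.492% and 1.20%), 1 of 3 and 0 in C08 (0.798% and 0.644%) and 0 of 4 and 0 in C01 (0.429% and 1.39%). With 3 to 7 histone genes measured per Tumor cluster, a count of 0 is near the share of all genes. Among lymphocytes they were 4 of 8 and 0 in the Treg cluster C12 (7.80% and 12.3%), 1 of 15 and 0 in C11 (1.76% and 1.45%), 1 of 7 and 0 in C06 (2.37% and 2.80%) and 0 of 6 and 2 of 6 in the NK cluster C10 (3.98% and 5.89%). In the other clusters they were 4 of 8 and 1 of 8 in C16 (6.71% and 6.65%), 1 of 4 and 0 in C17 (10.2% and 13.9%), 1 of 6 and 1 of 6 in C07 (6.14% and 4.36%) and 1 of 7 and 3 of 7 in C15 (12.6% and 23.9%).

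On the higher side, genes that act on histone mRNA or histones had shares nearer to that of all genes. Of 250 combinations of cluster and gene among 21 makers of histone mRNA (Slbp, Npat, which switches on histone transcription, Casp8ap2, Lsm10, Lsm11 and others), 8 (3.20%) were over 1.5-fold higher and 15 (6.0%) as much lower. Among 25 histone chaperones, 10 of 363 (2.75%) were higher and 9 (2.48%) lower. Slbp was 2.45 in both libraries in C11, 0.886 and 0.925 in C13 and 0.898 and 0.710 in C04, where its UMI ratio was 0.793 (0.709 to 0.886). Lsm11, a part of the U7 particle that cleaves histone mRNA, was 0.312 and 0.198 in C11. The sums of the 28 DNA replication genes and the 22 mitosis genes were lower in S303/7A in 13 and 12 of the 17 clusters, and that of the histone chaperones in 9. The UMI interval of the replication sum lay below 1 in 8 clusters and above 1 in 5, that of the mitosis sum in 10 and 3. Of the replication combinations 6.62% were over 1.5-fold higher and 5.99% lower, and of the mitosis combinations 8.11% and 6.31%. In the cycling clusters, the replication sum was 16.1 in WT and 14 in S303/7A in C04, 40.7 and 36.9 in C11, and 22.8 and 21.7 in C13. The mitosis sum was 26.7 and 25.0 in C04 and 44.4 and 37.5 in C11, but 24.1 and 29.9 in C13, where its UMI ratio of 1.22 (1.18 to 1.27) was beside one of 1.24 for the histone sum; its part in that difference was not tested.

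Among the 11 replacement histones, whose mRNAs are polyadenylated and made outside S phase too, 7 of 163 combinations (4.29%) were over 1.5-fold higher. As much lower were 5 (3.07%), against 4.67% higher and 5.86% lower of all combinations. H1f0, the linker histone H1.0 of differentiated cells, was singled out after its values were seen: it was higher in S303/7A in 17 of 17 clusters, with an interval above 1 in 9 and a median log2 ratio of 0.23, where 0.891% of the 4040 genes were higher in 17. It was 0.768 in WT and 1.16 in S303/7A in C03 (1.57, 1.34 to 1.86), 0.371 and 0.623 in C11 (1.71, 1.33 to 2.19) and 0.237 and 0.248 in NK cells. H2afz, the H2A.Z gene, was 7.96 and 7.41 in C03 and 26.5 and 24.1 in C11, and had an interval below 1 in 10 clusters and above 1 in 3. H2afx was 1.64 and 2.52 in C13 (1.63, 1.42 to 1.88) and 2.65 and 2.23 in C04 (0.807, 0.758 to 0.860).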

How the data were processed

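Per the labels' protocols, the libraries were made with the 3′ v2 chemistry from sorted live cells of pooled tumors. Cell Ranger, Seurat 3.0 and the builds mm10 and GRCm38 are named in the submitters' processing notes; which annotation they counted on is not given in the sources used here. In the deposited matrix each entry is a natural log, ln(1 + UMIs per 100000), which the authors normalized per cell and rounded. The cell table deposited by the authors gives each cell's UMI and gene counts, its mitochondrial percentage (percent), its cluster and its class. Whole UMIs were recovered from the log values: 99.94% of nonzero values came within 0.1 of a whole number, totals differed by at most 3 from the deposited ones, and gene numbers were equal in all 11456 cells. Cells were used as deposited, with no doublet caller, and without the 5% deepest cells of each cluster and library as an alternative.

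The level of a gene is the mean over cells of UMIs per 10000. Log2 ratios used a pseudocount of 0.1; genes under 0.1 in both libraries of a cluster were left out, and 1.5-fold was the threshold. Summed UMIs carry exact Poisson intervals, and UMI ratios exact conditional Clopper-Pearson intervals, both at 95% and covering counting error only. The calculations were tested on simulated data. Python 3.11.15, numpy 2.4.6, pandas 2.3.3 and scipy 1.17.1 were used. Any of the 61 genes could be named; the 12 with the highest mean level were described in full, with the highest of each histone class, the highest and lowest ratio of each compared cluster, genes among the 10 most like the sum (1 is not reported here), and the companion lists (1 of 22 makers of histone mRNA, Mizf, was not matched). The members and lists were chosen with earlier results of these data known.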

Additional observations from a re-analysis of the deposited data

Results flagged for a closer look

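Each pair of values below is the difference between the libraries in 2 clusters where it ran in opposite directions, each with a counting interval away from 1; the difference between the clusters was not tested. On the log2 scale (S303/7A over WT), the histone sum was 0.80 in C16 and -0.06 in C05. Without Hist1h2ap the direction in C05 turned, with means of 2.98 in WT and 4.12 in S303/7A. Hist1h2ap was 1.61 in C17, where 1 cell held 36 of 61 UMIs, and -1.95 in C15. Hist3h2a was 0.84 in C13 and -1.27 in C16. Hist1h4i was 0.65 in C14 and -0.87 in C10, the latter from 22 UMIs in WT and 8 in S303/7A. Hist1h1e was 0.81 in C12, which turned to -0.24 with thinned cells, and -1.62 in C15 (21 and 2 UMIs). Hist1h1b was 0.32 in C12 (12 and 41 UMIs) and -1.34 in C15 (14 UMIs and 1 UMI). Several of these values, above all those of Hist1h1e and Hist1h1b, rest on few UMIs. C15 was also the cluster where most genes of the table differed, with 23.9% over 1.5-fold lower in S303/7A.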

How the results depend on the processing

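With Hist1h2ap left out, the mean histone sum over clusters and libraries was 3.53 UMIs per 10000, where it was 5.30 with it, and the H2A share was 18.2% in WT and 16.1% in S303/7A. The log2 ratio between libraries without it was 0.27 in C04 (0.09 with it), 0.16 in C11 (-0.06), 0.63 in C13 (0.30) and 0.54 in C16 (0.80). In C05 the direction turned: the means were 7.01 in WT and 6.74 in S303/7A with Hist1h2ap, and 2.98 and 4.12 without it. The cycling contrast without it was 1.93 and 1.95 in CD8T, 0.59 and 0.72 in MF, and 0.75 and 0.64 in Tumor cells, in WT and S303/7A. With cells thinned to 1000 UMIs the ratio was 0.58 in C03, 0.02 in C04, 0.00 in C11 and 0.03 in C13, and the cycling contrast 3.31 in CD8T in WT, 1.74 in MF in WT and 0.99 in Tumor cells in S303/7A. Thinning also gave 5 clusters with higher Hist1h2ap (8 before, counting C12, whose log2 ratio rounds to 0), 5 with higher Hist1h4i (8 before) and 8 with lower histone mRNA makers (14 before, counting C17, which rounds to 0), and turned the direction of Hist1h2bc in C10 (0.08), Hist1h4i in C16 (-0.06) and Hist1h1e in C12 (-0.24). Summed UMIs gave 0.14 in C04. Without cells with a UMI of Mki67 or Top2a, a choice made after seeing the data, the ratio was 0.87 in C04 and 0.33 in C16, and Hist1h2ap in C16 turned to -0.16. With clusters weighted equally it was 0.28 in MF, 0.25 in Tumor and -0.05 in CD8T. Of the 30 gene and cluster combinations over 1.5-fold higher and 10 lower, a pseudocount of 1 left 2 and 1, and a minimum of 0.5 left 16 and 3. A threshold of 2-fold left 7 (5.79%) and 5 (4.13%), against 0.971% and 1.40% of all combinations. The cause of these shifts was not tested. Hist1h2bc was higher in 15 to 16 of 17 clusters and Hist1h1c in 13 to 15 under the alternatives run. No paired analysis was possible because each genotype is 1 library. Depth limits the H3 genes and most H4 genes, which had few UMIs, and 1 pool of mice per genotype limits every comparison.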
